A study of Mus with 4 samples.

Results

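The genes described here are 37 genes of the endoplasmic reticulum (ER) quality control system: ER chaperones and folding enzymes, the sensors and transcription factors of the unfolded protein response (UPR), its feedback regulators and targets, the machinery of ER-associated degradation (ERAD), and a pair of translocon genes. A probe on the array was matched for 36 of them, through 58 probes, out of 16355 genes with a symbol and 41166 probes tested. *Atf6* was not matched to a probe. *Ero1l* is listed in the gene table as *Ero1a*. The cells were GFP-positive *Six2* cells, the nephron progenitors of the cap mesenchyme, sorted from kidneys at embryonic day 15.5. *Mut* cells came from *Six2* Cre+/*PRR* flox/flox embryos and *WT* cells from *Six2* Cre+/*PRR* +/+ littermates, so both genotypes carried the GFP-tagged Cre transgene, which drives Cre in nephron progenitors, so that the cells derived from them inherit the deletion. Each RNA sample was a pool of kidneys. Arrays 1 to 3 held *Mut* pools 1 to 3 in Cy3 beside the equally numbered *WT* pools in Cy5, and array 4 held *WT* pool 2 in Cy3 beside *WT* pool 1 in Cy5 (*WT* vs *WT* array).

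Secreted and membrane proteins are folded in the ER with the help of chaperones such as BiP and of protein disulfide isomerases. When unfolded proteins build up, the sensors IRE1, PERK and ATF6 signal to the nucleus: IRE1 splices the *Xbp1* mRNA, PERK phosphorylates eIF2α and thereby raises the translation of *Atf4*, and ATF6 is cleaved to a transcription factor. Their targets are the chaperones, the ERAD components that return misfolded proteins to the cytosol, and, through ATF4 and CHOP, genes of amino acid supply and cell death. PRR, the prorenin receptor, is itself a membrane protein made in the ER and an accessory protein of the V-ATPase.

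The probe of the targeted gene did not tell the genotypes apart on these arrays. The study checked the loss of PRR mRNA in such sorted cells by RT-PCR, which is not analysed here. *Atp6ap2*, which encodes PRR, had a log2 *Mut*/*WT* of -0.08, -0.19 and -0.25 on arrays 1, 2 and 3, against -0.19 for the same dyes on the *WT* vs *WT* array, so which genotype is higher is known from the dye labels alone, and genotype and dye cannot be told apart on arrays 1 to 3. The direction these labels give is opposite to the study's for *Lhx1*, *Jag1*, *Fgf8*, *Ccnd1*, *Hes5* and *Eya1* among the marker genes, which the study describes as lower in *Mut* and which were higher here, and the same as the study's for *Hbb-y* and for the brighter of 2 probes of *Hsp90b1*, genes it describes as higher. Every sign, order and use of *Mut* and *WT* below is that of the labelled channels, and with the channels of arrays 1 to 3 exchanged each ratio would have the other sign. Where the probe lies in the transcript was not determined. The progenitor markers *Six2*, *Cited1*, *Eya1*, *Osr1* and *Wt1* were well above background in both channels of all 3 *Mut* vs *WT* arrays, and of the 10 progenitor markers 0 passed both thresholds (limma), with 2 higher and 4 lower at an unadjusted *P* under 0.05. Markers of other cells differed between the channels of arrays 1 to 3. Of 10 stroma markers 4 were higher in *Mut* past both thresholds, with a mean normalized log2 level over the list of 9.45 to 9.60 in the *Mut* and 9.16 to 9.18 in the *WT* channels. Of 9 markers of the differentiating nephron 2, *Ccnd1* (0.68) and *Lhx1* (0.69), were higher, *Hes5* (0.45), *Jag1* (0.44) and *Fgf8* (0.40) were short of 1.5-fold, and the list was at 7.92 to 7.97 in *Mut* and 7.56 to 7.64 in *WT*. Of 7 erythroid markers 1, *Hba-a1*, was higher, and the list was at 7.31 to 7.34 in *Mut* and 6.91 to 7.07 in *WT*. The *WT* pools of the *WT* vs *WT* array had stroma levels of 9.33 and 9.45, nephron levels of 8.05 and 8.01 and erythroid levels of 7.37 and 7.34, all above the *WT* range of arrays 1 to 3 and, except for *WT* pool 1 in stroma, at or above the lowest *Mut* level. With the channels as labelled the nephron and erythroid lists thus did not separate *Mut* from all *WT* samples. In both lists the *WT* samples of array 4 lay above the Cy3 and the Cy5 channels of arrays 1 to 3. Whether the labels of those arrays are exchanged was not tested. With a dye term 0 stroma markers passed both thresholds in limma, and 3 of the nephron and 1 of the erythroid markers did. The part of these cells in the values below was not tested, and fewer cells of a type and less RNA per cell cannot be told apart in such pools.

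Most ER chaperone and UPR genes differed little between *Mut* and *WT* in loess-normalized values with the normexp offset. Each gene is given by its brightest probe, and a difference was called at a Benjamini-Hochberg adjusted *P* under 0.05 (limma, over all probes) with a fold change over 1.5. Of the 36 genes 0 were higher and 1, *Atf4*, was lower in *Mut* past both thresholds, which is 2.78% of them, against 0.44% higher and 1.58% lower over all genes at their brightest probe. Of the 58 probes 3 were lower (5.17%), against 0.554% of all probes higher and 1.46% lower. At the adjusted *P* alone 7 genes were higher (19.4%) and 9 lower (25%), while 14.4% and 18.6% of all genes were. With a dye term taken from array 4, 0 of the 36 genes passed the adjusted *P* in limma, against 1.03% of all genes, so that each adjusted *P* below is from arrays 1 to 3 without that term unless said otherwise. At the probe level, without the term, there were 8 higher and 19 lower, against 13.2% and 16.4% of all probes. The median log2 *Mut*/*WT* of the 36 genes was 0.0067, next to -0.0029 over all genes, with 18 genes above and 18 below 0. The median was 0.03, -0.04 and -0.02 on arrays 1, 2 and 3 and -0.0080 on the *WT* vs *WT* array, and it was -0.49 with each array centred on its median instead of loess, where the median of all genes was -0.19. Of the 18 genes above 0, 16 were below it with that centring, and *Chac1* (0.11) and *Trib3* (0.21) stayed above. At an unadjusted *P* under 0.05 limma gave 8 genes higher and 10 lower, of which 0 and 1 passed 1.5-fold. For 34 of the 36 genes the 95% interval of the log2 ratio lay within 1.5-fold in both directions, the exceptions being *Atf4* and *Xbp1*. These intervals hold with the normexp offset of 50. In the deposited log ratios *Atf3* (-1.18), *Ppp1r15a* (-0.89) and *Ern1* (-0.86) were past 1.5-fold as well, each short of the adjusted *P*. With those ratios limma put 5 of the 36 genes past 1.5-fold at an unadjusted *P* under 0.05.

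**Figure D1:**
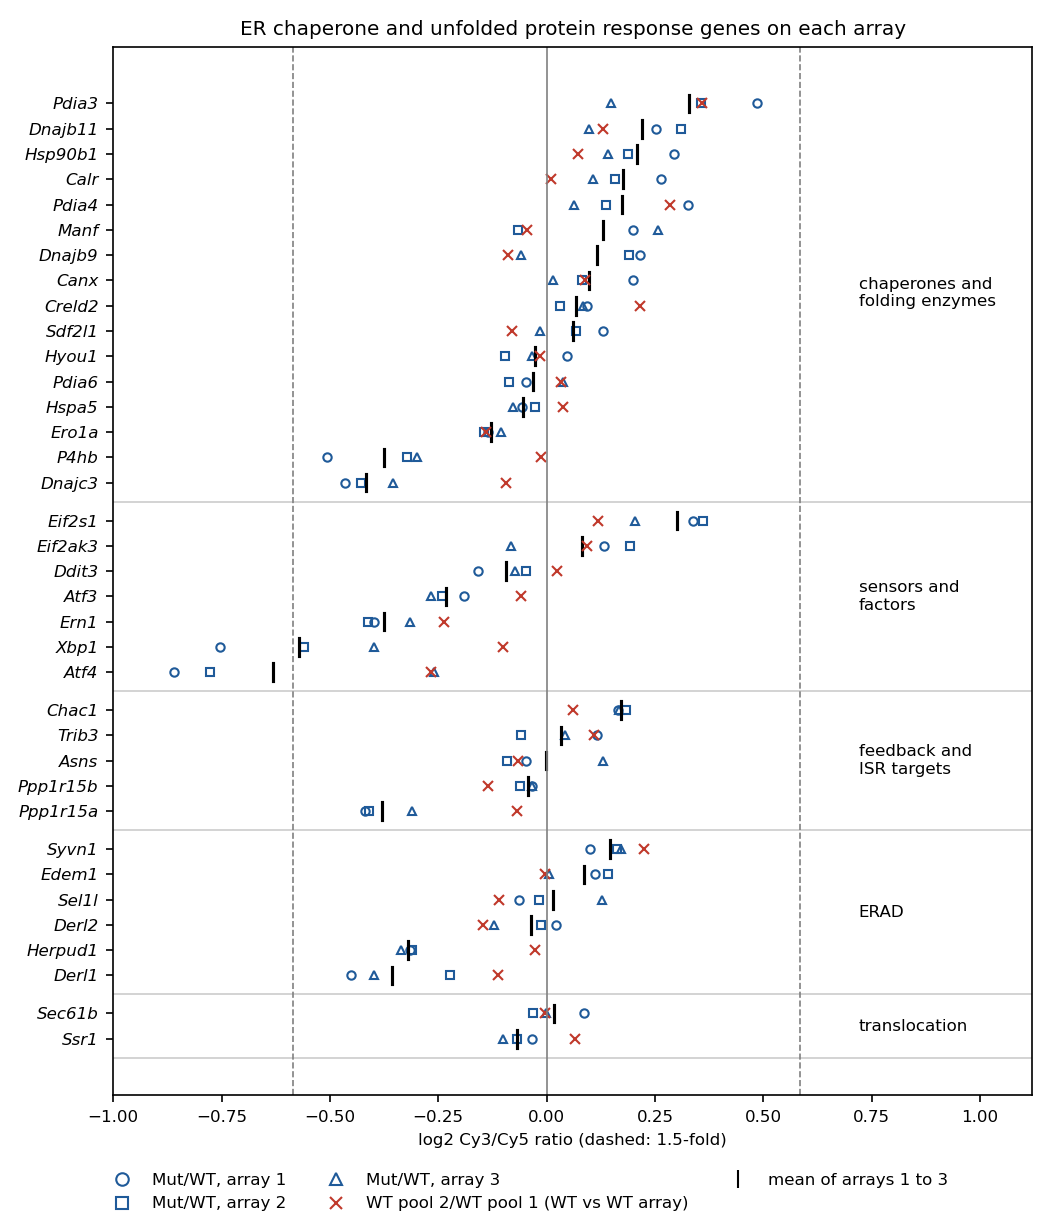
Log2 Cy3/Cy5 ratios (x axis) of the 36 genes at their brightest probe, grouped by role: *Mut*/*WT* on arrays 1 to 3 (open symbols), their mean (black bar) and the ratio of *WT* pool 2 to *WT* pool 1 from array 4 (cross). Most means lie between -0.42 and 0.33, and only *Atf4* (-0.63) passes the dashed 1.5-fold line. With each array centred on its median instead of loess, 16 of the genes to the right of 0 lie to the left of it.

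With the normexp offset *Atf4* and *Xbp1* had the lowest ratios of the 36 genes at the brightest probe, and would have the highest with the channels exchanged. In the deposited log ratios *Atf3* (-1.18), *Ppp1r15a* (-0.89) and *Ern1* (-0.86) were below both *Atf4* and *Xbp1* (each -0.66). Without the offset *Ern1* (-0.647) was level with *Xbp1* (-0.646). Of the 7 sensors and factors measured, 4 were lower and 1 higher at the adjusted *P*, against 18.6% and 14.4% of all genes. *Atf4*, the transcription factor of the PERK branch, had a log2 *Mut*/*WT* of -0.86 on array 1, -0.78 on array 2 and -0.26 on array 3, averaging -0.63 (SE 0.0932, 1.55-fold lower, adjusted *P* = 0.000422, limma). The 3 *Mut* pools gave normalized log2 signals of 8.90, 8.94 and 9.49, and the *WT* pools 9.76, 9.72 and 9.75. The groups did not overlap, but *Mut* pool 3 lay closer to the *WT* pools than to the other *Mut* pools. The call was lost without array 1 (-0.52) and without array 2 (-0.56), and was -0.82 without array 3. The value was -0.66 in the deposited log ratios and without the normexp offset, short of the adjusted *P* in both. On the *WT* vs *WT* array the ratio of the same dyes was -0.27, as large as on array 3, and both *WT* channels there (9.84 and 10.11) were above all others.

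*Xbp1*, the target of IRE1, followed. Its log2 *Mut*/*WT* was -0.75, -0.56 and -0.40, averaging -0.57 (SE 0.0662, adjusted *P* = 9.03e-05, limma), which is 1.48-fold and just short of the threshold. Without array 3 it passed, at -0.66. The *Mut* channels, at 8.07, 8.14 and 8.37, lay below all *WT* channels, which were at 8.83, 8.70 and 8.77 on arrays 1 to 3 and at 8.61 and 8.51 on the *WT* vs *WT* array. Whether the probe separates the spliced from the unspliced mRNA was not determined. *Ern1*, the gene of IRE1 itself, was at -0.40, -0.41 and -0.32, averaging -0.37 (SE 0.0521, adjusted *P* = 0.000287), whereas the *WT* vs *WT* array gave -0.24. There *WT* pool 2 was at 6.91, within the 6.78 to 6.92 of the *Mut* pools, so that *Mut* did not stand apart from all *WT* measurements for *Ern1*. The mean of *Ern1* was -0.86 in the deposited log ratios and -0.65 without the normexp offset, short of the adjusted *P* in both.

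The genes *Eif2ak3*, *Eif2s1*, *Atf3* and *Ddit3*, which act with *Atf4* in the PERK branch, had ratios between -0.23 and 0.30, and with median centring *Eif2ak3*, *Eif2s1*, *Atf3* and *Ddit3* were at -0.27, -0.27, -0.23 and -0.38. *Eif2ak3*, the gene of PERK, was at 0.13, 0.19 and -0.08, with a mean of 0.08 and a 95% interval of -0.05 to 0.22, and showed no difference beyond its error. *Eif2s1*, which encodes eIF2α, was higher on all 3 arrays, at 0.34, 0.36 and 0.20, averaging 0.30 (SE 0.0545, adjusted *P* = 0.00163, limma), and at 0.12 on the *WT* vs *WT* array, but at -0.27 with each array centred on its median. Its other probe was at 0.11 (adjusted *P* = 0.173). *Atf3*, a stress-induced factor downstream of ATF4, was at -0.19, -0.24 and -0.27 (adjusted *P* = 0.00533). No *Mut* channel measured *Atf3* well above background, so that the difference is given as at least 1.16-fold, a bound set from the higher of the probe's own signal and the dimmest signal above background. The mean of *Atf3* was -1.18 in the deposited log ratios and -0.56 without the normexp offset, short of the adjusted *P* in both. *Ddit3*, which encodes CHOP, was at -0.16, -0.05 and -0.07, averaging -0.09 with an interval of -0.21 to 0.02 (adjusted *P* = 0.207).

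**Figure D2:**
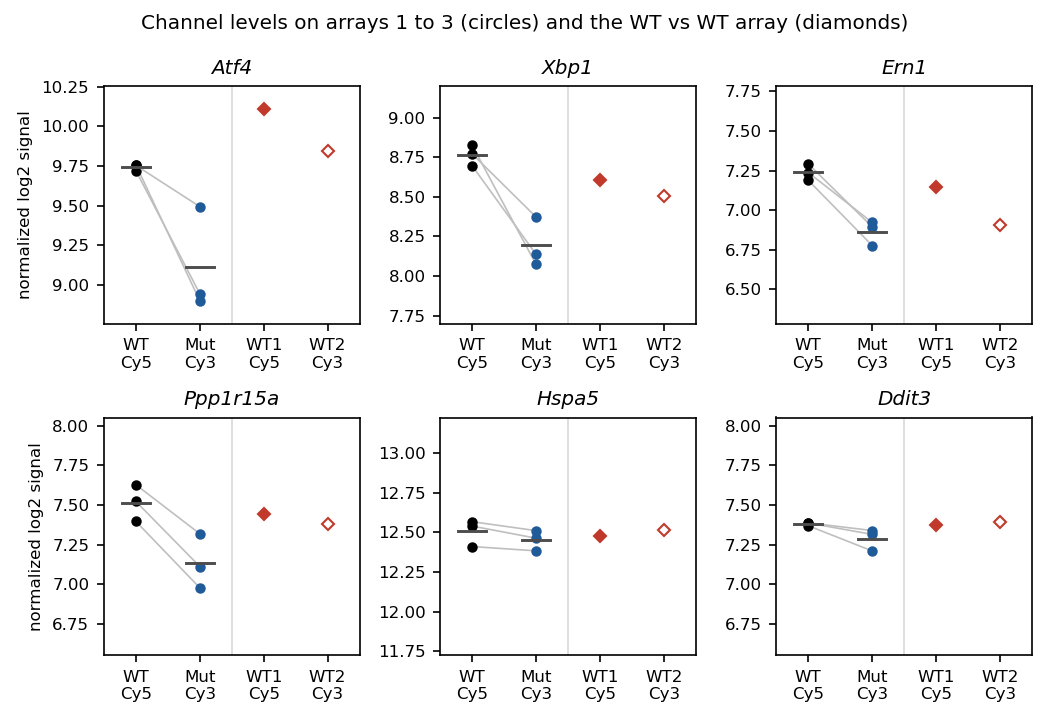
Normalized log2 signal (y axis, the same span in every panel) of 6 genes in the *WT* (Cy5) and *Mut* (Cy3) channels of arrays 1 to 3, with lines joining the channels of an array and bars for the group means, and of *WT* pools 1 and 2 on the *WT* vs *WT* array (diamonds). For *Atf4*, *Mut* pool 3 (9.49) lies between the other *Mut* pools and *WT*, and for *Hspa5* the groups overlap.

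The feedback regulators and targets of the integrated stress response had 1 of 5 genes higher and 1 lower at the adjusted *P*, a count that is read against the 14.4% and 18.6% of all genes. *Asns*, the asparagine synthetase gene, was at -0.05, -0.09 and 0.13, averaging -0.0023 with a 95% interval of -0.13 to 0.12. *Chac1*, a glutathione-degrading enzyme, was slightly higher on every array, at 0.17, 0.18 and 0.17 (adjusted *P* = 0.024, limma). *Trib3*, a pseudokinase induced by CHOP, stayed below the background limit in *Mut* and *WT* alike, and its ratio (0.03) has no meaning as a level. Of the phosphatase subunits that reverse eIF2α phosphorylation, the stress-induced *Ppp1r15a* (GADD34) was lower at -0.42, -0.41 and -0.31, averaging -0.38 (SE 0.0526, adjusted *P* = 0.00028, limma). Its mean was -0.89 in the deposited log ratios and -0.58 without the normexp offset, short of the adjusted *P* in both. The constitutive *Ppp1r15b* (CReP) was at -0.03, -0.06 and -0.03 (adjusted *P* = 0.566). *Ppp1r15a* and *Atf3* can also respond to tissue dissociation. Of 24 dissociation and heat shock genes measured, 2, *Fosb* (0.72) and *Junb* (0.65), were higher past both thresholds and 0 were lower, and the median of the list was -0.0093. With a dye term from the *WT* vs *WT* array neither passed. The part of dissociation in the values of *Ppp1r15a* and *Atf3* was not tested.

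The ER chaperones showed no common direction in loess-normalized values. Of the 16 chaperones and folding enzymes 5 were higher and 2 lower at the adjusted *P*, against 14.4% and 18.6% of all genes, 0 passed 1.5-fold, and the median was 0.08. With each array centred on its median every chaperone and folding enzyme was below 0, from -0.24 (*Ero1l*) to -1.01 (*P4hb*). The 5 higher ones were then between -0.30 and -0.49, where the median of all genes was at -0.19. *Hspa5* encodes BiP, the major ER chaperone and the usual readout of the UPR. Its log2 *Mut*/*WT* was -0.06, -0.03 and -0.08, averaging -0.05 (SE 0.0509, adjusted *P* = 0.465, limma), and its 95% interval, -0.16 to 0.06, lay well within 1.5-fold. With each array centred on its median it was -0.72 (SE 0.246, adjusted *P* = 0.165), so the small ratio of *Hspa5* holds for loess-normalized values and for the deposited log ratios (-0.08). The *Mut* channels, at 12.51, 12.38 and 12.46, overlapped the *WT* channels, at 12.57, 12.41 and 12.54. The BiP cofactors *Hyou1* (-0.03), *Sdf2l1* (0.06) and *Dnajb9* (0.12), the secreted ER stress proteins *Manf* (0.13) and *Creld2* (0.07), and the lectin chaperone *Canx* (0.10) did not pass the adjusted *P* at the brightest probe. The dimmer probes of *Canx* were at 0.09 (adjusted *P* = 0.294) and -0.30 (adjusted *P* = 0.00267, limma).

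Among the chaperones past the adjusted *P*, *Hsp90b1* (GRP94) was at 0.29, 0.19 and 0.14 (mean 0.21, adjusted *P* = 0.0129), *Dnajb11*, a BiP cochaperone, at 0.25, 0.31 and 0.10 (mean 0.22, adjusted *P* = 0.013), and *Calr*, the soluble lectin chaperone calreticulin, at 0.26, 0.16 and 0.11 (mean 0.18, adjusted *P* = 0.0298). For these 3 genes the *Mut* channels lay above all *WT* channels of the 4 arrays. *Dnajc3* (p58IPK), a BiP cochaperone that also inhibits PERK, was the lowest of the group, at -0.47, -0.43 and -0.35, averaging -0.42 (SE 0.0523, adjusted *P* = 0.000152, limma). Of its 4 probes, all were below 0, and 3 passed the adjusted *P*. The *Mut* channels of the brightest, 8.63 to 8.90, lay below the *WT* channels of the 4 arrays, 9.01 to 9.25. At each of the dimmer *Dnajc3* probes the *Mut* channels overlapped the *WT* channels of the 4 arrays.

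Of the protein disulfide isomerases *P4hb* was lower and *Pdia3* and *Pdia4* higher at the adjusted *P*, but all 3 were below 0 with the dye term (-0.36, -0.03 and -0.11) and with median centring (-1.01, -0.30 and -0.36). *P4hb*, the founding member of the family, was at -0.51, -0.32 and -0.30, averaging -0.38 (SE 0.0574, adjusted *P* = 0.000541, limma), with -0.01 on the *WT* vs *WT* array. *Pdia3* (ERp57), the partner of calnexin and calreticulin, was at 0.49, 0.36 and 0.15, averaging 0.33 (SE 0.0651, adjusted *P* = 0.00275), and reached 0.36 between the *WT* pools of array 4, where no genotype differs. *Pdia4* was at 0.33, 0.14 and 0.06 (adjusted *P* = 0.0475) against 0.29 on that array. For *Pdia3* and *Pdia4* the difference between the *WT* pools in opposite dyes was thus as large as that between the genotypes, and for *P4hb* it was not. *Pdia6* was at -0.03 (adjusted *P* = 0.684), and the oxidase gene *Ero1l*, at -0.13 (adjusted *P* = 0.0789), gave -0.14 between the *WT* pools as well.

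Of the 6 ERAD genes 2 were lower and 0 higher at the adjusted *P* (limma), against 18.6% and 14.4% of all genes, with 1 higher at an unadjusted *P* under 0.05 and 0 past 1.5-fold. *Herpud1*, a UPR-induced scaffold of the ERAD complex, had the most even ratio of them, at -0.32, -0.31 and -0.34 (SD 0.0132, mean -0.32, adjusted *P* = 0.00066, limma), and -0.03 on the *WT* vs *WT* array. The signal of *Herpud1* on that array was nevertheless 8.87 and 8.85 in the 2 *WT* pools, at the level of *Mut* (8.82 to 8.87) and below that of *WT* on arrays 1 to 3 (9.13 to 9.20). *Derl1*, a channel component, was at -0.45, -0.22 and -0.40 (mean -0.36, adjusted *P* = 0.000809, limma), and at -0.11 on the *WT* vs *WT* array. Its 4 probes were between -0.36 and -0.24, each past the adjusted *P*. For the probes at -0.27 and -0.29 the *Mut* channels overlapped the *WT* channels of the 4 arrays. *Derl2* (-0.04), the ubiquitin ligase gene *Syvn1* (0.15), its partner *Sel1l* (0.02) and the mannosidase-like *Edem1* (0.09) did not pass at the brightest probe. The other probe of *Sel1l* was at -0.28 (adjusted *P* = 0.00306, limma). The translocon genes *Sec61b* (0.02, interval -0.10 to 0.13) and *Ssr1* (-0.07, interval -0.18 to 0.04) showed no difference beyond their error at the brightest probe. The other probe of *Ssr1* was at 0.17 (interval 0.05 to 0.29, adjusted *P* = 0.0364, limma).

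Probes of the same gene did not always tell the same story. Of 14 genes held by several probes 7 had means on both sides of 0, and for *Calr* and *Hsp90b1* probes passed the adjusted *P* in opposite directions. The dimmer probe of *Hsp90b1* was at -0.62, -0.60 and -0.57, averaging -0.59 (SE 0.0509, adjusted *P* = 1.26e-05, limma), and passed both thresholds as lower, against 0.21 at the brighter probe. Its *Mut* channels were at 11.91 to 12.00 and the *WT* channels of arrays 1 to 3 at 12.50 to 12.62, while the *WT* pools of array 4 were at 12.02 and 12.17, nearer to *Mut*. The dimmer probe of *Calr* was at -0.77, -0.48 and -0.40, averaging -0.55, against 0.18 at the brighter probe. Its *Mut* channels were at 7.97 to 8.38 and the *WT* channels of arrays 1 to 3 at 8.69 to 8.78. The *WT* pools of array 4, at 8.31 and 8.43, overlapped *Mut*. One of the dimmer probes of *Pdia6* was at -1.07, -0.74 and -0.19, averaging -0.67 (SE 0.118, adjusted *P* = 0.00138), and passed both thresholds as lower, with a wide spread between arrays (SD 0.44). The other probes of *Pdia6* were at -0.03 and -0.09. Which transcript forms these probes bind was not determined, so the 3 called probes stand for 3 genes of which 2 have a brighter probe that does not show the difference.

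**Figure D3:**
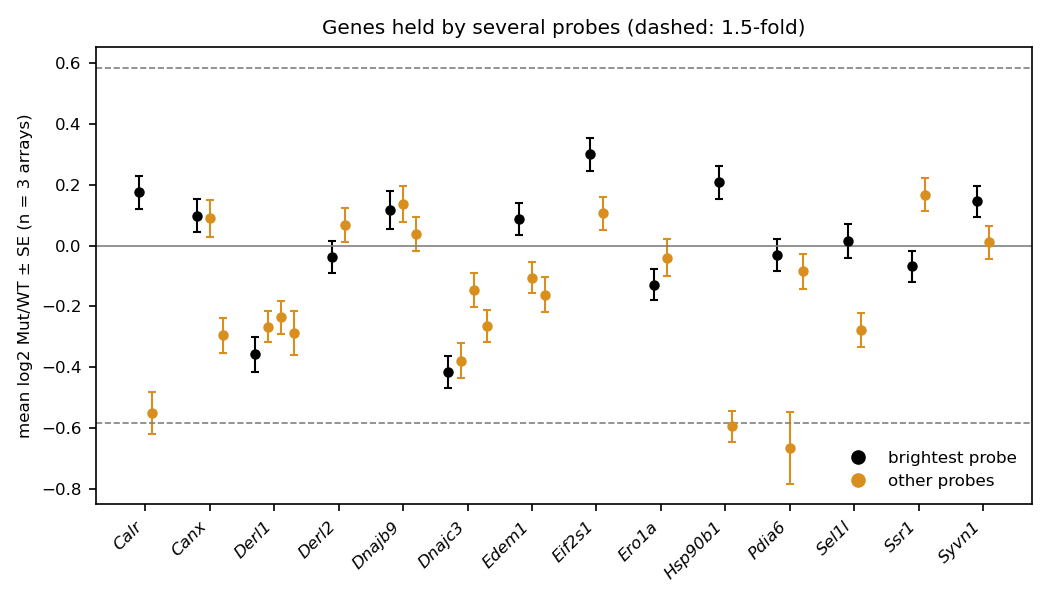
Mean log2 *Mut*/*WT* of arrays 1 to 3 (y axis, error bars SE, n = 3 arrays) for each probe of the 14 genes held by several probes, the brightest in black. The probes of *Derl1* and *Dnajc3* lie together below 0, whereas *Calr* and *Hsp90b1* have a probe on either side (0.18 and -0.55, 0.21 and -0.59), and *Pdia6* has 1 at -0.67. With median centring the brightest probes of *Calr* and *Hsp90b1* lie below 0 too.

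The *WT* vs *WT* array gives the size of ratios that arise between *WT* pools in opposite dyes. Over the 36 genes the median absolute log2 ratio on this array was 0.09, and the largest was 0.36 (*Pdia3*). When the dye effect of a probe was taken from that array and fitted as a term, 0 of the 36 genes passed both thresholds, against 0.801% of all genes in either direction, and 1 of the 58 probes did, the dimmer probe of *Calr* (-0.67, adjusted *P* = 0.0471, limma). *Xbp1* was then the lowest of the genes, at -0.47 (adjusted *P* = 0.129), and *Atf4* was at -0.37 (adjusted *P* = 0.401). *P4hb*, *Dnajc3*, *Ppp1r15a* and *Herpud1* were between -0.36 and -0.30, and *Hspa5* was at -0.09. The dye term rests on 1 array and makes the error larger, so that a missed threshold does not show that the genes were alike. For the dimmer probe of *Calr* the *Mut* channels overlapped the *WT* channels of that array.

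**Figure D4:**
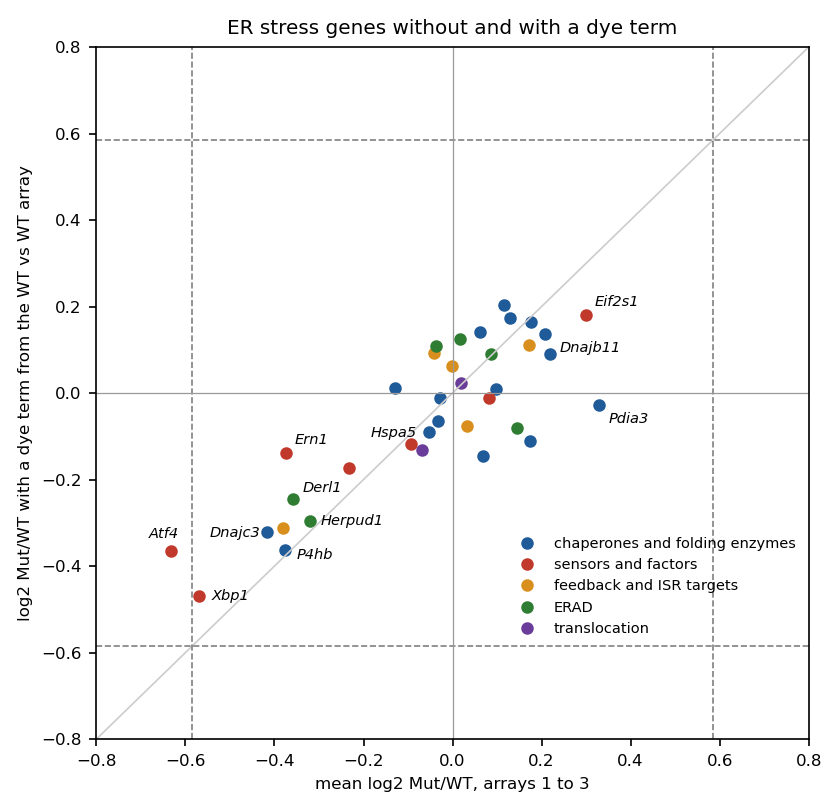
Mean log2 *Mut*/*WT* of arrays 1 to 3 (x axis) against the log2 *Mut*/*WT* with a dye term from the *WT* vs *WT* array (y axis) for the 36 genes, coloured by role. The diagonal marks equal values and the dashed lines 1.5-fold. *Xbp1* (-0.57 and -0.47), *P4hb* (-0.38 and -0.36) and *Herpud1* (-0.32 and -0.30) stay close to the diagonal, *Atf4* moves from -0.63 to -0.37, and *Pdia3* from 0.33 to -0.03.

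When the signals of the *Mut* pools were set against all 5 *WT* measurements of the 4 arrays, which come from 3 pools, 6 of the 36 genes (16.7%) lay entirely above and 8 (22.2%) entirely below, against 7.26% and 10.7% of all genes, with the channels taken as labelled. With the channels of arrays 1 to 3 exchanged, an alternative added after the data were seen, 5 genes (13.9%), *Xbp1*, *Ern1*, *P4hb*, *Herpud1* and *Atf3*, lay entirely above the *WT* measurements and 0 below, against 11.4% and 7.6% of all genes. As labelled, those below were *Atf4*, *Xbp1*, *Dnajc3*, *P4hb*, *Derl1*, *Ppp1r15a*, *Atf3* and *Ddit3*. Those above were *Hsp90b1*, *Calr*, *Canx*, *Dnajb11*, *Pdia3* and *Chac1*, of which all but *Chac1* turned to lower with median centring. Against *WT* pool 2, the one *WT* sample in Cy3, the 3 *Mut* pools stood on average at -0.73 on the log2 scale for *Atf4* and at -0.31 for *Xbp1*, and 1 of the 36 genes, *Atf4*, differed by more than 1.5-fold. This is a comparison with 1 pool on another array, and no test was made. The second measurement of *WT* pool 1 was closer to *Mut* than to *WT* for 7 of the 36 genes (19.4%), against 39.6% of all genes.

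A further 150 genes of ER folding, translocation, ERAD, stress sensing and the integrated stress response were measured, and 7 of them (4.67%) were lower and 0 higher past both thresholds, against 1.58% and 0.44% of all genes. At the adjusted *P* alone 42 (28%) were lower and 17 (11.3%) higher, against 18.6% and 14.4% of all genes. The translocation and glycosylation list held 3 of the 7, among 26 genes: *Srp68*, a subunit of the signal recognition particle, at -1.34, -1.09 and -0.73 (mean -1.05, adjusted *P* = 1.25e-05, limma), *Ssr2*, at -0.64, and *Ddost*, a subunit of the oligosaccharyltransferase, at -0.59. The *WT* pools of array 4 differed by -0.40 for *Srp68*. Among 36 ER folding genes *Dnajc10*, a disulfide reductase that serves ERAD, was at -0.91, -0.79 and -0.55 (mean -0.75, adjusted *P* = 1.79e-05) and *P3h1*, a collagen prolyl hydroxylase, at -0.61. Among 27 ERAD genes *Aup1*, which recruits a ubiquitin-conjugating enzyme, was at -0.65, with -0.34 on the *WT* vs *WT* array. Of 24 further sensors and factors limma called 0, with 5 higher and 7 lower at an unadjusted *P* under 0.05 and 2 and 5 at the adjusted *P*, and 0 were called with the dye term or from the deposited log ratios. Among 37 targets of the integrated stress response *Ddit4*, an inhibitor of mTORC1, was at -0.70, -0.60 and -0.81 (mean -0.70, adjusted *P* = 8.41e-06), but its signal in *WT* pool 1 on array 4 differed from the *WT* mean of arrays 1 to 3 by -0.71, which put it at the level of *Mut*, and the same difference was -0.71 for *Ddost*. The 11 aminoacyl-tRNA synthetase genes of that list lay between -0.20 and 0.23, with 0 past both thresholds by limma. With the dye term *Srp68*, *Ddost*, *Dnajc10*, *Aup1*, *Ssr2*, *P3h1* and *Ddit4* were at -0.65, -0.63, -0.72, -0.31, -0.37, -0.56 and -0.79. Of the 7, *Dnajc10*, *Ddit4* and *Ddost* then still passed both thresholds, and so did *Man1a*, an alpha-mannosidase gene at -0.66, which was at -0.54 without the term.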

How the data were processed

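Both channels of 4 dual-colour Agilent arrays on 1 slide were analysed. The deposited intensity values are, per the file headers, linear median signals of each spot and its local background from Agilent Feature Extraction 10.7.3.1, without normalization. The log10 ratio of red over green that the authors deposited is background-subtracted and dye-normalized by that program. Signals were background-corrected (normexp, offset 50), ratios were normalized by loess within arrays, control and outlier spots were left out and spots of a probe averaged. The median signal was used where the mean was planned. Ratios were turned to Cy3/Cy5. Single-channel levels follow Aquantile normalization. At 41166 probes the ratios of arrays 1 to 3 were tested against 0 (limma 3.58.1, R 4.3.3, Benjamini-Hochberg), and the fit was tested on simulated data. The number of arrays limits the precision, and 45.1% to 58.3% of probes per channel were well above background.

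Array accessions were named through a GRCm38.p6 gene table (22951 of 41174 probes, 55.7%). All members are named, and of other lists the called genes, at most 3 a list (*Man1a*, the synthetases and marker genes were added after their values were seen). Members and lists were chosen with earlier results of these data known. The 2 pools sharing an array share a number. Their deviations from the group means correlated at 0.388, 0.431 and 0.32 over probes, and treating the 6 channels as unpaired left the single call (1 gene). Whether the pools came from separate litters is not stated. The ureteric bud, endothelium and macrophage lists had 0 calls (limma), with 3, 1 and 4 genes at an unadjusted *P* under 0.05. A table of the authors' log ratios for the whole series was not used. The deposited log ratios, no offset, median centring, kept outliers, bright probes only, a dye term, the methods' t-test and leaving out each array were tried as alternatives.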

Additional observations from a re-analysis of the deposited data

How the results depend on the processing

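The single gene called among the 36 (*Atf4*) became 0 with the deposited log ratios, no normexp offset, median centring, the dye term and the methods' t-test, unadjusted or adjusted, and 16 at the adjusted *P* alone. It stayed 1 with kept outliers, bright probes only, unpaired channels (no replicate block, which changed no call among the 36 genes) and the median over probes, and ranged from 0 to 2 when an array was left out. The 3 called probes became 0 without the offset, with median centring and with the adjusted t-test, 1 with the dye term and with the unadjusted t-test, and 27 at the adjusted *P* alone, and ranged from 0 (without array 1) to 5 (without array 3). The deposited log ratios gave 3 as well, of which the dimmer *Hsp90b1* probe is shared and dimmer probes of *Sel1l* (lower) and *Syvn1* (higher) are not. The 7 further ER genes became 0 without the offset and with median centring, 4 with the dye term (3 of the 7, and *Man1a*), and 4 to 7 without an array. The 2 dissociation genes became 0 under the same 3 settings and stayed 2 without any array. The deposited log ratios gave 2 as well, but 1 higher and 1 lower, without *Fosb* (adjusted *P* = 0.0507, limma). Without the offset and with median centring limma called 0 of all 41166 probes, while 3 and 15 of the 36 genes passed an unadjusted *P* under 0.05 with 1.5-fold. With the deposited log ratios 5 of the 36 genes did. Over all probes the calls were 228 higher and 599 lower, 1489 and 1216 with the deposited log ratios, and 146 and 177 with the dye term. The median of the 36 genes was -0.49 with median centring, -0.035 with the median over probes, and -0.012 to 0.028 without an array. The causes were not tested.

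Of 393 values of single genes under 11 settings 341 kept direction and call, and 45 changed sign, 13 genes never doing so. With median centring *Calr* was at -0.47, *Canx* -0.57, *Creld2* -0.57, *Dnajb11* -0.37, *Dnajb9* -0.34, *Edem1* -0.38, *Eif2ak3* -0.27, *Eif2s1* -0.27, *Hsp90b1* -0.49, *Manf* -0.46, *Pdia3* -0.30, *Pdia4* -0.36, *Sdf2l1* -0.48, *Sec61b* -0.68, *Sel1l* -0.43 and *Syvn1* -0.50. With the dye term *Asns* was at 0.063, *Creld2* -0.15, *Derl2* 0.11, *Eif2ak3* -0.012, *Ero1l* (*Ero1a*) 0.011, *Pdia3* -0.029, *Pdia4* -0.11, *Ppp1r15b* 0.092, *Syvn1* -0.080 and *Trib3* -0.077. With the median over probes *Calr* was at -0.19, *Derl2* 0.015, *Edem1* -0.093, *Hsp90b1* -0.19, *Sel1l* -0.13 and *Ssr1* 0.050. The deposited log ratios turned *Asns* (0.048), *Ppp1r15b* (0.011) and *Trib3* (-0.16), and no offset turned *Asns* (0.027), *Hyou1* (0.0016) and *Sec61b* (-0.0039). Without an array *Asns* ranged from -0.069 to 0.042, *Sec61b* from -0.015 to 0.043, *Trib3* from -0.0088 to 0.079, *Hyou1* from -0.064 to 0.0072, *Derl2* from -0.067 to 0.0048, *Sel1l* from -0.040 to 0.055, *Atf4* from -0.82 to -0.52 and *Xbp1* from -0.66 to -0.48.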
